A study of Oryctolagus cuniculus with 4 samples.

Results

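The genes described here regulate pluripotency and the epiblast, and were read in whole rabbit blastocysts that arose by parthenogenesis or by fertilisation. A list of 9 genes was followed, namely POU5F1, SOX2, NANOG, SALL4, LIN28A, PRDM14, ESRRB, OTX2 and TDGF1. Their probes were found among the 43603 probes of the array by the array's gene name, by accession or by description. Of the 9 genes, 4 had at least 1 probe, with 8 probes in all: 1 each for POU5F1, LIN28A and ESRRB and 5 for OTX2. SOX2, NANOG, SALL4, PRDM14 and TDGF1 had no probe under their name and were not analysed here.

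POU5F1 (also called OCT4) is a POU-domain transcription factor that pluripotent cells need, and it works with SOX2 and NANOG on shared targets. The pluripotent cells of a blastocyst sit in its inner cell mass, which later forms the epiblast, while the surrounding trophectoderm gives rise to placental tissue. LIN28A is an RNA-binding protein that blocks maturation of the let-7 microRNAs. ESRRB is an orphan nuclear receptor of the naive pluripotent state, and OTX2 is a homeodomain factor of the primed, later epiblast.

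Both groups were New Zealand White blastocysts recovered at 6 days. The parthenotes came from unfertilised oocytes activated by direct-current electrical pulses followed by cycloheximide and 6-DMAP (6-dimethylaminopurine, an inhibitor of protein kinases), and developed in the reproductive tract of recipient does. The control blastocysts were untreated, came from inseminated does and carried a paternal genome, which the parthenotes lacked. RNA of 4 pools per group was hybridised to 4 two-colour arrays, with parthenote RNA in the Cy3 channel and fertilised RNA in the Cy5 channel. Each pool held several embryos, all 4 arrays lay on 1 slide and no array had the dyes swapped, so dye and group cannot be told apart. A processed signal is a spot's background-subtracted, dye-normalised intensity in arbitrary units, and it depends on the probe, so levels of different genes are not ranked here. The brightest probe of a list is named only to show which gene weighs most in its summed signal. The ratio of each array was expressed as log2 of parthenote over fertilised, so that positive values mean a higher signal in parthenotes.

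Each array held 43803 spots other than controls. The scanner software called 25805 to 26339 of them well above background for parthenote RNA, and 27508 to 27835 for fertilised RNA. The labels were borne out by the paternally expressed transcript SNURF/SNRPN, whose 11 probes were all lower in parthenotes on all 4 arrays. The 3 of them measured in both channels of every array had mean log2 ratios from -5.86 to -5.51, and the other 8 were well above background on every fertilised array but on 0 to 3 parthenote arrays. With 4 arrays, precision is limited for every value below.

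The probes are shown because each ratio holds for the stretch of transcript that its probe covers. The positions are those of the array file, which names no genome build and lists each probe from the higher to the lower coordinate. The POU5F1 probe lies at chr12:20169066-20169125 and starts at base 905 of its transcript. The LIN28A probe lies at chr13:138938171-138938230 and starts at base 431. The ESRRB probe starts at base 606, and its listed span, chr20:28724269-28724716, covers 448 bases and is thus longer than the 60-base probe. The OTX2 probes lie between chr17:75259035-75259094 and chr17:75259039-75259098, start at bases 830 to 834 and are shifted by 1 base from each other, so they are repeated readings of 1 site. Capitals mark the 56 bases that all 5 OTX2 probes share, and the first and last of them are shown.
POU5F1: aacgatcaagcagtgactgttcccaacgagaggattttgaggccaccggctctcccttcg
LIN28A: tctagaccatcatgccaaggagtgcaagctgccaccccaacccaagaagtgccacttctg
ESRRB: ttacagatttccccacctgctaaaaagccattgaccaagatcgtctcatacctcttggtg
OTX2, start at base 830: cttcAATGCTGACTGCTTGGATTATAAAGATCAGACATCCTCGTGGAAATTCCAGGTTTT
OTX2, start at base 834: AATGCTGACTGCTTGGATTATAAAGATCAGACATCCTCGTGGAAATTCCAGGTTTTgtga

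POU5F1 was higher in parthenotes on the deposited scale, by a small and even amount, and its ratio turned negative on a scale described below. In the parthenote pools of arrays 1 to 4 its signal was 9914, 8946, 9564 and 8729. In the fertilised pools of the same arrays it was 8327, 7883, 8420 and 7569. The lowest parthenote pool lay above the highest fertilised pool, so the groups did not overlap. A probe is called measured throughout here where all 8 of its signals were well above background. Among the 24117 such probes with no missing spot, 31.1% did not overlap between the groups and 15.9% did so with the parthenotes higher. The signal varied little within a group, with a coefficient of variation of 5.89% over the parthenote pools and 4.93% over the fertilised pools. The plot of signals by channel shows the 4 lines of POU5F1 running almost parallel.

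**Figure D1:**
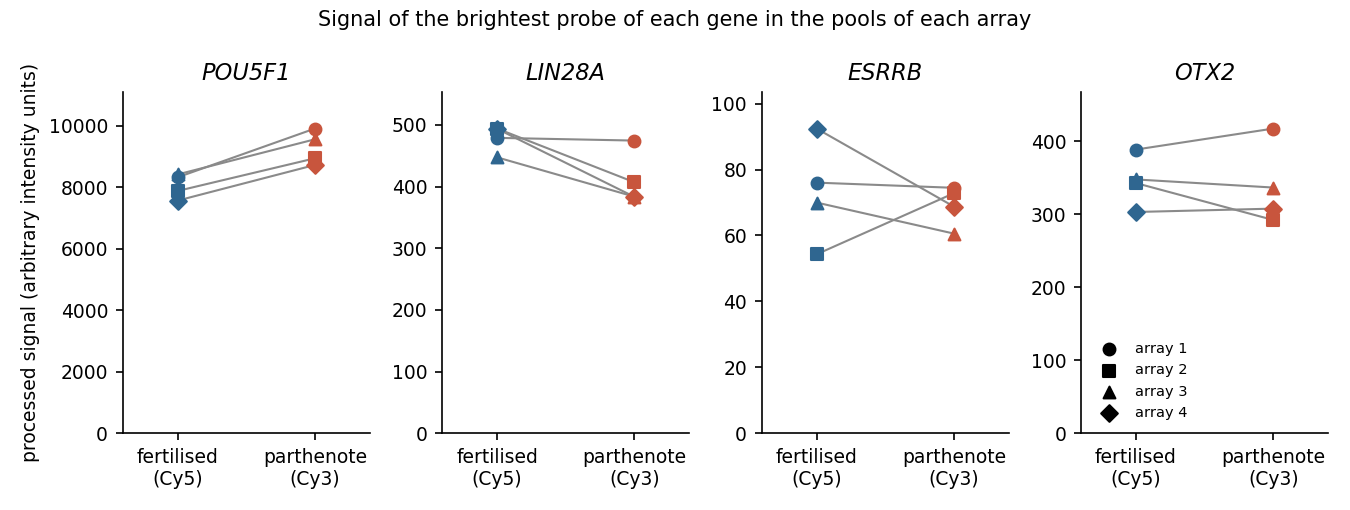
Processed signal (arbitrary intensity units, linear axes from 0) of the brightest probe of each gene in the fertilised (blue) and parthenote (red) pools, with symbols for the 4 arrays and lines joining the pools of an array. POU5F1 was between 8729 and 9914 in parthenotes and between 7569 and 8420 in fertilised blastocysts, while the other 3 genes overlapped between the groups.

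The log2 ratio of POU5F1 was 0.25, 0.18, 0.18 and 0.21 on arrays 1 to 4. The mean was 0.21 ± 0.03 (SD, n = 4 arrays; 95% confidence interval 0.16 to 0.25), that is 1.15-fold or 15.3% more signal in parthenotes. The probe passed the threshold of 0.05 in limma over all probes tested, with an adjusted p of 0.0118 and an unadjusted p of 0.000426. It was the only 1 of the 8 probes to pass, against 20.6% of the 43595 probes tested, of which 9.53% were higher and 11.1% lower in parthenotes. Of the 24136 probes measured throughout, missing spots allowed, 29.5% passed, and 13.9% passed with a higher signal in parthenotes. Because whole blastocysts were pooled, a different number of POU5F1-expressing cells and a different amount of RNA per cell cannot be told apart.

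Among all probes measured throughout, the POU5F1 ratio stood out by its even size and not by its magnitude. Of these probes, 48.4% had an absolute ratio at least as large, whereas 2.34% had an SD over arrays at least as small. The shares are over probes of any brightness, and the SD was not compared with that of probes of like signal. An exact sign-flip permutation test over the 4 arrays gave p = 0.125 (two-sided), the smallest p that 4 arrays allow. The adjusted p was 0.0566 without array 2, 0.0535 without array 3 and 0.0746 without array 4, so the call was lost in each of these 3 cases, and treating the channels as unpaired samples gave 0.0585.

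The sign of the POU5F1 ratio depended on how the dyes were brought to a common scale. When the raw intensities were background-corrected by normexp and each array was only centred on its median, the POU5F1 ratio was -0.52 and passed the test in that direction (adjusted p = 2.42e-05), and the median over all probes measured throughout moved to -0.40. Simple centring shifts all ratios of an array by the same amount, whereas the deposited ratio was dye-normalised by the scanner software. Why the sign differed was not tested. On that centred scale the 501 probes nearest to POU5F1 in mean signal had a median ratio of -0.75, -0.55, -0.73 and -0.81 on arrays 1 to 4. Relative to those probes POU5F1 was higher by 0.24, 0.16, 0.18 and 0.19, with a mean of 0.19 and an adjusted p of 0.0334 in limma. Relative to the same number of probes of like signal on the deposited scale the mean was 0.20 and the adjusted p 0.0148. Both of these comparisons were chosen after the data were seen. Of the probes measured throughout, 15.8% passed as higher in the first and 14.4% in the second. POU5F1 was higher on all 4 arrays than the median of probes of like brightness on either scale.

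**Figure D2:**
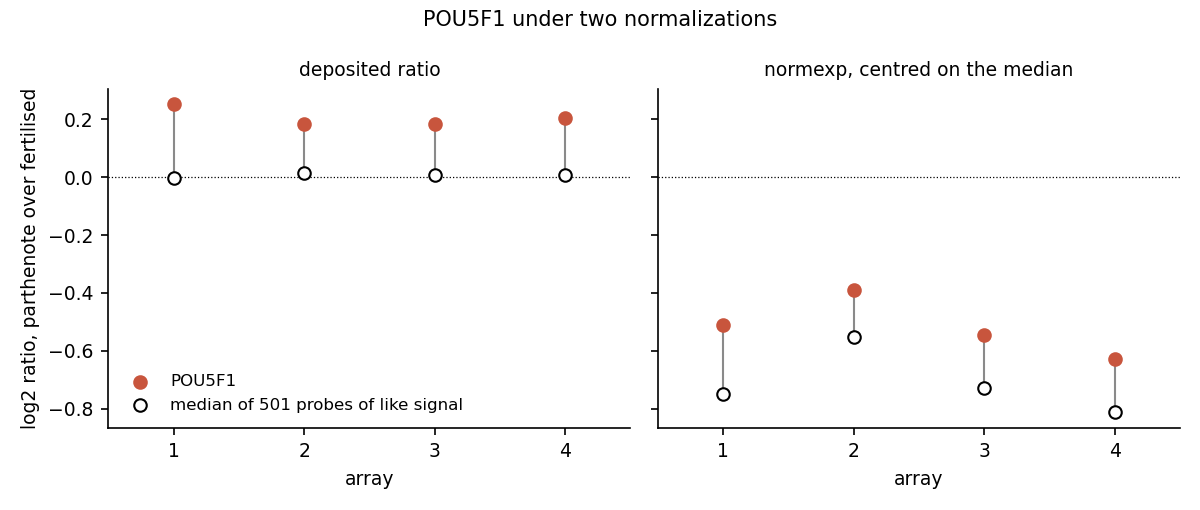
Log2 ratio of POU5F1 (red) and the median log2 ratio of the 501 probes nearest to it in mean signal (open circles) on each array, for the deposited ratio (left) and after normexp and median centring (right). The POU5F1 ratio changes sign between the panels, from a mean of 0.21 to -0.52, and lies above the open circle on all 4 arrays in both.

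The LIN28A signal was lower in parthenotes on every array but the probe did not pass the test. Of the probes measured throughout, 59.2% had a ratio of the same sign on all 4 arrays. In parthenote pools it was 474.7, 407.1, 383.7 and 383.4. In fertilised pools it was 479.1, 494.2, 447.5 and 493.8. The parthenote pool of array 1 fell within the fertilised range, and the other 3 parthenote pools lay below it. The log2 ratios were -0.01, -0.28, -0.22 and -0.37, with a mean of -0.22 ± 0.15 (SD, n = 4; 95% confidence interval -0.43 to -0.01). The unadjusted p was 0.0420 and the adjusted p 0.122. Of the probes measured throughout, 45.9% had an absolute ratio at least as large, and the LIN28A probe passed under 2 alternatives. Under median centring its ratio was -0.60 (adjusted p = 4.71e-06), and relative to the probes of like signal on that scale it was -0.18 (adjusted p = 0.0675). With loess on repaired local backgrounds, chosen after the data were seen, its ratio was -0.19 (adjusted p = 0.0453).

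ESRRB gave a low signal with no common direction. In parthenote pools it was 74.45, 72.80, 60.56 and 68.76, and in fertilised pools it was 76.02, 54.27, 69.98 and 92.43. The fertilised pools spanned the whole parthenote range. The coefficient of variation was 21.6% over the fertilised pools and 8.97% over the parthenote pools. The log2 ratios were -0.03, 0.42, -0.21 and -0.43, with a mean of -0.06 ± 0.36 (SD, n = 4; adjusted p = 0.930). The 95% confidence interval, -0.56 to 0.44, left room for a difference of either sign.

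OTX2 did not pass the test with any of its 5 probes. For the brightest of them, which starts at base 834, the parthenote signals were 417.7, 292.3, 336.8 and 307.9. The fertilised signals were 388.9, 342.9, 347.9 and 303.3. Array 1 held the brightest pool of either group, and the ranges overlapped. The log2 ratios were 0.10, -0.23, -0.05 and 0.02, with a mean of -0.04 ± 0.14 (SD, n = 4; 95% confidence interval -0.23 to 0.16; adjusted p = 0.786).

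Under median centring all 5 probes passed as lower, with ratios from -0.41 to -0.39 beside the shift of -0.40 in the median of probes measured throughout. The other 4 OTX2 probes had mean log2 ratios from -0.09 to -0.04 and adjusted p-values from 0.242 to 0.800. Averaged over the 5 probes, the ratio was 0.07, -0.20, -0.05 and -0.02 on arrays 1 to 4. The SD between the 5 probes on an array was 0.0332 to 0.0665, below the SD of 0.111 between arrays, so the arrays varied more than the repeated readings did. The probes are not replicates, since they read the same 56 bases of the same RNA.

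**Figure D3:**
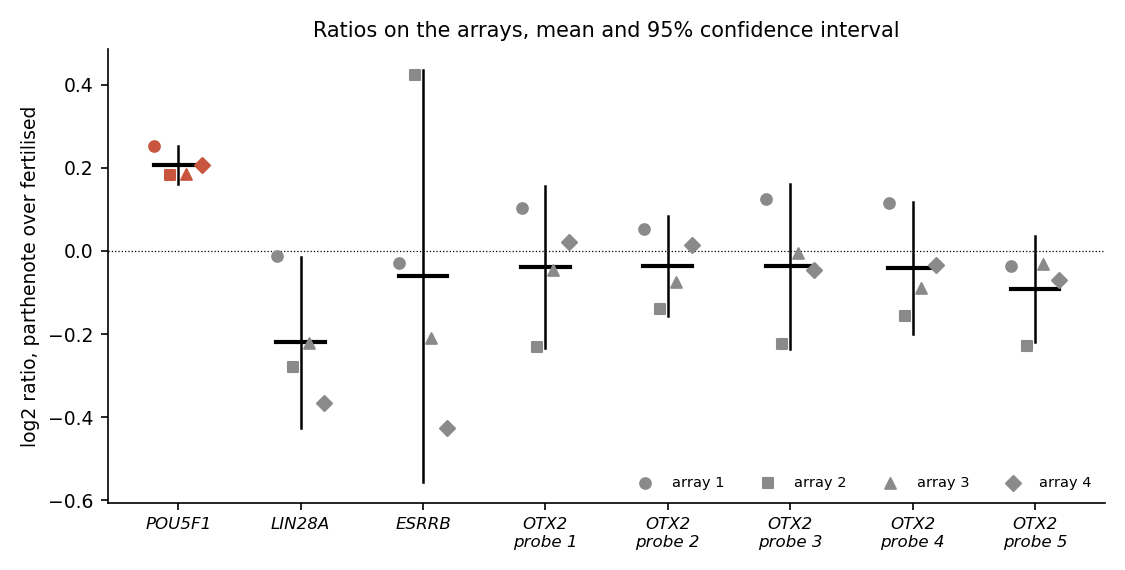
Log2 ratio of parthenote over fertilised for the 8 probes on the 4 arrays (symbols), with the mean (thick bar) and its 95% confidence interval from limma (thin line); OTX2 probes 1 to 5 start at bases 834 to 830 and red marks an adjusted p under 0.05. The POU5F1 interval, 0.16 to 0.25, is the narrowest, and of the 8 probes POU5F1 alone passed after adjustment.

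The 4 genes were also compared with each other by their ratios within the same array, in 6 pairs. The POU5F1 ratio exceeded that of LIN28A by 0.26, 0.46, 0.41 and 0.57 on arrays 1 to 4, a mean difference of 0.43 ± 0.13 (SD, n = 4). It exceeded that of OTX2 on all 4 arrays too, by a mean of 0.24 ± 0.12. The OTX2 ratio was above that of LIN28A on all 4 arrays, by a mean of 0.18 ± 0.15. For these 3 pairs the exact sign-flip permutation test gave p = 0.125, the smallest that 4 arrays allow, and 0.25 after adjustment over the 6 pairs. The 3 pairs that include ESRRB had exact p-values from 0.25 to 1.

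Among 6715 other named genes measured throughout, 3 had the pattern of log2 ratios nearest to that of POU5F1 over the 4 arrays. These were CEBPG, with a mean log2 ratio of 0.20 and a root mean square difference of 0.0127 from POU5F1, PAIP1 (0.21 and 0.0168) and NDUFV2 (0.19 and 0.0238). CEBPG is a bZIP transcription factor, PAIP1 binds the poly(A)-binding protein and NDUFV2 is a subunit of respiratory complex I.

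The pathways around these regulators were read from 8 lists, which hold 133 genes. None of the 4 genes already described is among them. A probe was found for 77, and each gene is given by its brightest probe. Of the 77, 3 were higher, 15 lower and 59 did not pass, or 23.4% called. Over the brightest probes of all 9727 named genes 24.1% were called, 11.9% higher and 12.3% lower. The median log2 ratio of the 77 was -0.13. Without array 1, 13 of the 77 passed, and without arrays 2, 3 and 4 there were 2, 3 and 1. The excess of lower genes varied with the scale. With normexp and loess 4 were higher and 10 lower. After median centring relative to probes of like signal 10 were higher and 11 lower. That last setting leaves probes not measured throughout without the correction, so its counts mix corrected and uncorrected genes.

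**Figure D4:**
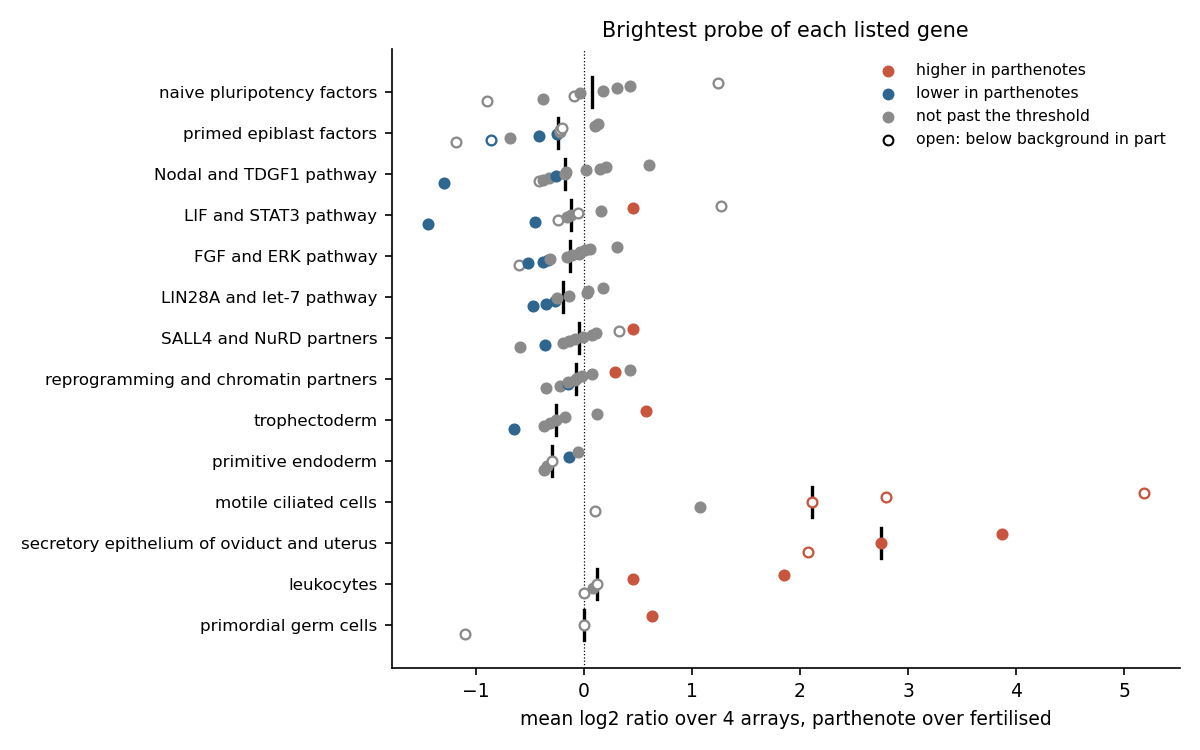
Mean log2 ratio of parthenote over fertilised (n = 4 arrays) for the brightest probe of each listed gene, by list, with the list's median as a black bar; red and blue mark an adjusted p under 0.05 with the parthenotes higher or lower, and open circles probes that were not measured throughout. Of the pluripotency, signalling and chromatin lists at the top, the medians lie between -0.23 and 0.07, whereas the ciliated and secretory lists have medians of 2.11 (1.08 with 2 genes at their lower bounds) and 2.75.

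Naive pluripotency factors, which sustain the ground state of the inner cell mass, had 8 of 21 genes with a probe. None of the 8 passed, and their median log2 ratio was 0.07. KLF5, a Kruppel-like factor, had ratios of 0.72, 0.50, 0.20 and 0.30 (adjusted p = 0.0787), and DPPA5, an RNA-binding protein of pluripotent cells, had ratios of 0.64, 0.24, 0.14 and 0.23 (adjusted p = 0.131). Median centring turned the mean ratios of both to negative values, -0.15 and -0.33. With normexp and loess KLF5 passed as higher (0.34, adjusted p = 0.0458) and DPPA5 did not pass (0.30, adjusted p = 0.0637). GDF3, a ligand related to NODAL, was the brightest gene of the list, and array 1 stood apart from the rest. Its parthenote signals were 5313, 14920, 9997 and 10600 and its fertilised signals 15190, 15420, 9362 and 10830. The log2 ratio was -1.52 on array 1 and -0.05, 0.09 and -0.03 on the others, and on array 1 all 5 GDF3 probes lay between -1.52 and -1.45. NR5A2, of the same list, was lower on all 4 arrays and did not pass (adjusted p = 0.110). It was well above background on all 4 fertilised arrays but on no parthenote array. Its mean log2 signal was low in both groups (3.30 in parthenotes and 4.20 in fertilised pools), so no fold is given. GDF3, KLF5, DPPA5 and NR5A2 were named after their values were seen, as was TBXT below.

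Primed epiblast factors had 10 of 21 genes with a probe, of which 3 were lower, none was higher and 7 did not pass, with a median log2 ratio of -0.23. DNMT3B, the de novo DNA methyltransferase of the epiblast, had parthenote signals of 1309, 1224, 1186 and 1074 against 1443, 1520, 1381 and 1331 in fertilised pools. The groups did not overlap, as for 31.1% of the probes measured throughout with no missing spot. The mean log2 ratio of DNMT3B was -0.25 ± 0.08 (adjusted p = 0.0338). All 5 of its probes were lower, though probes of a gene are not replicates. SALL1, a relative of SALL4, passed with an adjusted p of 0.0314 but was well above background on no parthenote array and on 3 of 4 fertilised arrays, so no fold is given. Its ratio turned to 0.18 under median centring and the call was lost with normexp and loess (adjusted p = 0.965). The mesoderm factor TBXT had ratios of -0.60, -1.25, -1.88 and -1.01 and did not pass (adjusted p = 0.0566). It was well above background on 1 parthenote array and 3 fertilised arrays.

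TDGF1 is a co-receptor for NODAL, a TGF-beta ligand that maintains the epiblast and is cut to its active form by proprotein convertases. In this pathway 11 of 20 genes had a probe, of which 2 were lower and 9 did not pass (median log2 ratio -0.17). The convertase PCSK6 had parthenote signals of 92.07, 70.61, 77.45 and 59.08 against 175.6, 192.6, 180.6 and 174.0 in fertilised pools. Its mean ratio of -1.29 ± 0.28, or 0.409 times the fertilised level, passed with an adjusted p of 0.0168, and with normexp and loess the ratio was -0.66 (adjusted p = 0.0246). The signal transducer SMAD2 had a mean ratio of -0.26 ± 0.08 (adjusted p = 0.0285). NODAL itself had ratios of 1.08, 0.77, 0.47 and 0.10 (adjusted p = 0.125), and its inhibitor LEFTY2 had ratios of -0.29, -0.21, -0.23 and -0.56 (adjusted p = 0.0687). Their mean ratios of 0.60 and -0.32 were 0.18 and -0.11 with normexp and loess, where neither passed (adjusted p = 0.196 and 0.175). Both passed with the ratio of the processed signals (adjusted p = 0.0448 and 0.0264). For SMAD4, the shared partner of the receptor-regulated SMADs, the brightest probe did not pass (mean ratio -0.16) while its 2 other probes passed in the opposite direction, so its probes disagreed.

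LIF signals through the receptor subunit IL6ST, the JAK kinases and STAT3. Of 9 of 10 genes with a probe, 1 was higher, 2 were lower and 6 did not pass (median log2 ratio -0.12). JAK2 gave parthenote signals of 74.40, 66.50, 52.08 and 57.92 against 176.4, 205.5, 145.0 and 155.0. Both of its probes were lower, and the brighter had a mean ratio of -1.44 ± 0.16, or 0.368 times the fertilised level (adjusted p = 0.0074), against -0.70 with normexp and loess (adjusted p = 0.0192). STAT3 was lower with 4 of its 5 probes (-0.45 ± 0.17, adjusted p = 0.0392). JAK1 was higher with 1 of its 2 probes (0.46 ± 0.18, adjusted p = 0.0455), with the sign turned to -0.16 under median centring.

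FGF signalling through ERK moves cells out of the naive state. In this list 12 of 16 genes had a probe, of which 3 were lower, none was higher and 9 did not pass (median log2 ratio -0.13). The feedback inhibitor SPRY1 had a mean ratio of -0.51 ± 0.15 (adjusted p = 0.0272), which was -0.11 and did not pass with normexp and loess (adjusted p = 0.190). The kinase MAPK3 (ERK1) had a mean ratio of -0.37 ± 0.07 (adjusted p = 0.0143), and the receptor FGFR4 one of -0.33 ± 0.06 (adjusted p = 0.0146). For DUSP6 the brightest probe did not pass (mean ratio 0.31, adjusted p = 0.0521), while 2 of its 5 probes passed as higher. For GRB2 the brightest probe had a mean ratio of 0.01, and 1 of its 2 probes passed as higher. DUSP6 and GRB2 were named after their values were seen.

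In the list around LIN28A and let-7, 8 of 13 genes had a probe, with 3 lower, none higher and 5 not passing (median log2 ratio -0.19). DGCR8, a partner of DROSHA in cutting primary microRNAs, had a mean ratio of -0.47 ± 0.16 (adjusted p = 0.0347). IGF2BP3, an mRNA-binding protein, had a mean ratio of -0.34 ± 0.14 (adjusted p = 0.0472). TUT4, the enzyme that adds uridines to the let-7 precursors bound by LIN28A, had a mean ratio of -0.27 ± 0.08 (adjusted p = 0.0289), which was -0.12 and did not pass with normexp and loess (adjusted p = 0.105). DROSHA itself did not pass.

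SALL4 recruits the NuRD histone deacetylase complex, for which 10 of 16 listed genes had a probe (1 higher, 1 lower, 8 not passing, median log2 ratio -0.04). The histone chaperone RBBP7 was higher with both of its probes (0.46 ± 0.09, adjusted p = 0.0146), and MTA1 was lower (-0.36 ± 0.15, adjusted p = 0.0496). Among reprogramming and chromatin partners 10 of 19 genes had a probe (1 higher, 1 lower, 8 not passing, median log2 ratio -0.07). The kinase GSK3B was higher (0.29 ± 0.06, adjusted p = 0.0155) and MYC was lower (-0.15 ± 0.05, adjusted p = 0.0385), with 6 of the 7 MYC probes lower. With normexp and loess neither MTA1 (adjusted p = 0.0635) nor MYC (adjusted p = 0.0759) passed. Under median centring the ratio of RBBP7 turned to -0.25 and that of GSK3B to -0.35.

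The other lineages of the blastocyst were read in the same way. Of 7 of 11 trophectoderm genes with a probe, the keratin KRT8 was higher (0.58 ± 0.22, adjusted p = 0.0408), GATA2 was lower (-0.64 ± 0.26, adjusted p = 0.0451) and 5 did not pass, among them GATA3 (0.12 ± 0.12, adjusted p = 0.214). The median log2 ratio of the 7 was -0.26. KRT19 (-0.37), TFAP2C (-0.31) and TFAP2A (-0.26), named after their values were seen, were lower on all 4 arrays but did not pass. HAND1, also named afterwards, had a mean ratio of -0.17 and did not pass. Median centring turned the ratios of KRT8 and GATA3 to -0.21 and -0.48. CDX2, which defines the lineage, had no probe. The summed signal of the 7 genes on arrays 1 to 4 was 29400, 42900, 40510 and 34290 in parthenotes and 31470, 33310, 32330 and 29510 in fertilised pools, with KRT8 the brightest. Of 5 of 10 primitive endoderm genes with a probe, 1 was lower and 4 did not pass, among them GATA4 (-0.34 ± 0.20, adjusted p = 0.0903). Their summed signal was 1669, 2217, 1823 and 1662 against 2117, 2578, 2383 and 1747, lower in the parthenote pool on every array, with DAB2 the brightest.

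Among markers of cells of the maternal tract, several had larger ratios than any of the 4 regulators. Of 5 of 7 genes of motile ciliated cells with a probe, 3 were higher and none was lower. The median log2 ratio was 2.11, and 1.08 with CFAP144 and RSPH1 at the bounds given next. The value 2.11 is that of DNAI1, an axonemal dynein subunit, which was well above background on 3 parthenote arrays and 1 fertilised array and had a ratio of 0.61 with normexp and loess. On the deposited scale the axonemal gene CFAP144 was at least 3.94-fold higher and RSPH1 at least 1.37-fold higher. Only bounds are given, since neither of these probes was well above background in any fertilised pool. With normexp and loess the mean log2 ratio of CFAP144 was 1.76 (adjusted p = 0.0354), which is below its bound. Of the other 4 CFAP144 probes, 1 was well above background on 1 fertilised array. For both bounds a fertilised array was given the lowest signal among its probes well above background, or that of the probe itself if this exceeded it. SPAG6, named after its values were seen, was the brightest of the list, and FOXJ1, the master factor of motile cilia, was well above background on no array. The summed signal of the list was 518.9, 249.2, 656.2 and 446.3 in parthenotes and 166.3, 88.85, 102.7 and 107.6 in fertilised pools. All 3 genes of oviduct and uterine secretory epithelium with a probe, of 6 listed, were higher. The mean log2 ratio was 3.87 ± 0.29 for OVGP1, the oviductal glycoprotein (adjusted p = 0.00513), and 2.75 ± 0.45 for SCGB1A1, or uteroglobin (adjusted p = 0.0119). PGR passed (adjusted p = 0.0283) but was well above background on 1 fertilised array alone, and it did not pass with normexp and loess (adjusted p = 0.0634). OVGP1 had the brightest probe over both groups. The summed signal of the 3 was 7008, 5831, 25630 and 13310 against 976.0, 680.5, 2237 and 941.7.

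Of 5 leukocyte genes with a probe, CD48 (1.85 ± 0.30) and CD68 (0.45 ± 0.18) were higher, with adjusted p-values of 0.0117 and 0.0434, and LAPTM5 carried the brightest probe. LAPTM5 did not pass (adjusted p = 0.942), with ratios of 0.92, -0.36, -0.20 and -0.003. With normexp and loess CD48 was 0.72 (adjusted p = 0.0357) and CD68 0.22, which did not pass (adjusted p = 0.0760). The summed signal of the list was 598.6, 398.6, 400.9 and 384.2 against 309.9, 378.3, 332.3 and 295.2. The defining leukocyte gene PTPRC and CD3E were well above background on no array. Of 3 of 5 germ cell genes with a probe, DDX4, an RNA helicase of the germ line, was higher (0.63 ± 0.17, adjusted p = 0.0246; 0.19 and adjusted p = 0.0576 with normexp and loess), 2 did not pass, and DAZL was well above background on no array. DND1, named after its values were seen, was lower on all 4 arrays and did not pass (adjusted p = 0.0884). It was well above background on no parthenote array and on 2 fertilised arrays. Whether such cells were present in the pools, and whether they had a part in the POU5F1 ratio, was not tested.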

How the data were processed

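RNA from 4 pools of parthenote and 4 of fertilised day 6 blastocysts was measured on 4 arrays. The authors extracted the spots with Agilent Feature Extraction 10.10.1.1 (per the labels). The deposited files hold a mean intensity and local background intensity for each spot, a processed intensity (background-subtracted, dye-normalised) and a log10 ratio of processed Cy5 over Cy3, which can be exactly 0 where both channels are dim. The value table of the series that the authors deposited holds the same log10 ratio with its sign turned, with a sample for each column.

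The log10 ratios were converted to log2 of parthenote over fertilised. Control and outlier spots were removed, and repeated spots of 1 probe were replaced by their mean. Every probe measured on 3 or more arrays was tested against 0 with limma 3.58.1 in R 4.3.3 (lmFit, eBayes, two-sided), with Benjamini-Hochberg adjustment over all 43595 probes and a threshold of 0.05. Pools sharing an array are thereby paired. As a check, log2 signals were taken as deviations from their group mean. These had a correlation of 0.448, 0.475, 0.408 and 0.394 between pools on arrays 1, 2, 3 and 4, and of -0.189 to -0.102 on average with other arrays. Deviations from a group mean cancel over the arrays, so the negative averages follow from the positive values and add nothing to them. The paper calls the pools independent, but nothing states that they came from separate batches of animals. The p-values thus measure the spread between these pools.

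Gene symbols were given to 23297 probes by RefSeq accession (13115 probes), gene identifier (9238) or symbol (329) within the description, the array's gene name (88) or a second probe for the transcript (527), and 138 probes with several genes were left unnamed. Names alone were taken from the RefSeq annotation of mOryCun1.1. For a gene read by more than 1 probe, the one with the highest mean signal was given. Named genes were all genes of the list with a probe, up to 4 called genes with 1 sign on all arrays from each other list, defining markers and 3 genes of like pattern. Some genes that the rule takes in are counted but not reported by name here. The genes and lists were chosen with earlier results of these data known. Alternatives changed the normalization, filters, test, pairing and arrays used, and the test was checked on simulated data. Annotation used Python 3.11.15 and pandas 2.3.3, and figures were drawn with matplotlib 3.10.9.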

Additional observations from a re-analysis of the deposited data

Results flagged for a closer look

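In 5 of 65 sets of 4 values examined 1 array stood far from the other 3, by a test of gaps that flags about 1 set in 20 by chance. The log2 ratio of GDF3 was -1.515 on array 1, against values from -0.05 to 0.09 on the others. For the OTX2 probe that starts at base 831, the parthenote signal was 387.7 on array 1, against 262.0 to 279.5. For the OTX2 probe that starts at base 830, it was 296.8 on array 3, against 244.0 to 250.0. The log2 ratio of PTPRC was 0.5033 on array 4 and that of FOXJ1 was 0.4342 on array 1. Both genes had a ratio of 0 on the other 3 arrays, and neither was well above background in either channel on any array.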

How the results depend on the processing

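Of the 43595 probes, 8996 passed, with 46.2% of them higher. This count was 31610 with normexp and median centring (46.8% higher), 21399 with the ratio of the processed signals (65.0% higher), 4435 with the methods' t-test and 21346 with normexp and median centring taken relative to probes of like signal, which was chosen after seeing the data (81.7% higher, and this setting leaves probes not measured throughout without the correction). With no replicate block, so that the pairing of pools on an array was ignored, it was 16358 (68.0% higher). Leaving out 1 array gave 1239 to 5736. Of the 8 probes of the 4 regulators 1 passed, against 7 under median centring, 0 with no replicate block, 2 with repaired local backgrounds (chosen after seeing the data) and 0 to 1 with 1 array left out. Leaving out the value table, POU5F1 passed as higher in 7 and as lower in 1 (median centring) of 12 alternatives, and as higher in 3 others chosen after seeing the data (adjusted p from 2.42e-05 there to 0.0746 without array 4). The 7 probes under median centring, POU5F1, LIN28A and the 5 of OTX2, all passed as lower. Of 30 other genes that the rule takes in and that passed, 10 lost the call with normexp and loess, 18 with the methods' t-test, and 11, 26, 23 and 29 without arrays 1 to 4.

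Median centring turned POU5F1 to -0.52, JAK1 to -0.16, RBBP7 to -0.25, GSK3B to -0.35, GATA3 to -0.48, KRT8 to -0.21, DPPA5 to -0.33, KLF5 to -0.15 and SALL1 to 0.18, while the median of probes measured throughout moved to -0.40. SALL1 was 0.00062 with repaired backgrounds. It was not measured throughout, so the setting relative to probes of like signal left it uncorrected at 0.18. With 1 array left out, ESRRB ranged from -0.22 to 0.062 (positive without array 4) and GDF3 from -0.53 to 0.0053 (positive without array 1). The OTX2 probes, which passed as lower under median centring alone (-0.41 to -0.39), turned to 0.0095 and 0.0081 with loess (starts 834 and 832). With 1 array left out, these ranged from -0.085 to 0.026 and from -0.092 to 0.025 (both positive without array 2). Relative to probes of like signal, starts 832 and 831 turned to 0.0089 and 0.0014 on the deposited scale, and starts 834, 832 and 831 to 0.014, 0.020 and 0.015 on the centred scale. The cause of these changes was not tested. The value table holds the deposited ratios, so its agreement says nothing about stability. Among the 77 pathway genes, 5 passed lower and 2 higher with the methods' t-test, 40 lower and 4 higher under median centring, 11 lower and 10 higher under that centring relative to probes of like signal, and 16 lower and 7 higher with repaired backgrounds. Signals near background, as for SALL1, NR5A2 and TBXT, limit what their ratios show.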
